A study of Mus musculus with 16 samples.

Results

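The genes described here encode the proteins of the cytoplasmic ribosome. They were the rows of the deposited count table whose mouse symbol is Rpl or Rps with a number, at most 1 of the letters a, x or l and 1 more digit, together with Rplp0, Rplp1, Rplp2 and Rpsa. Rows with the pseudogene ending -ps were left out, and 100 or more counts summed over all libraries were required. Of 89 rows that the naming rule found, 83 passed this minimum, out of 49671 gene rows in all. The 6 rows that fell short were Rpl3l with 78 counts, Rpl10l with 0, Rpl32l with 28, Rpl39l with 6, Rps3a3 with 98 and Rps12l1 with 0. The member nearest to the minimum from above was Rpl6l with 134 counts, and the most counted member, Rpl3, had 158527. Large-subunit names (Rpl) made up 49 of the members and small-subunit names (Rps) 34. The GENCODE M21 annotation lists 80 of them as protein coding, and the other 3, Rps4l, Rps3a2 and Rpl6l, carry pseudogene classes.

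The study measured bulk RNA of the hippocampus of 8-month-old female mice in 16 libraries, 4 in each of 4 groups. WT carried neither genetic change, p16KO lacked p16, PS19 carried the PS19 transgene with p16 intact, and PS19_p16KO had the transgene and lacked p16. PS19 is a transgene for a disease-mutant human tau, driven by the mouse prion protein promoter, and is used as a model of tauopathy. The p16 protein blocks cell division and is widely used to mark senescent cells. It is made from Cdkn2a, whose row in a gene-level table also holds the reads of the other protein of that gene. The labels do not state whether the 4 libraries of a group are different mice, and p-values therefore measure only the spread between libraries, which may be technical.

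A ribosome holds 1 copy of most of these proteins, so their genes are expressed at a high and coordinated level in every cell type. Ribosomal protein mRNAs are short, and many start with a C followed by a run of pyrimidines, the 5′ terminal oligopyrimidine (TOP) tract, through which mTOR signalling controls their translation. Neurons also carry these mRNAs into dendrites and axons, and mammalian genomes hold many processed pseudogenes of ribosomal protein genes, which are copies of the spliced mRNA.

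Each library held between 18485552 and 22311322 gene counts, and ERCC spike-in rows held 0.574% to 1.06% of all counts. Levels below are CPM, counts per 1000000 gene counts. Cdkn2a held only 31 counts over all 16 libraries. It ran from 0.0448 to 0.212 CPM in WT and from 0.0538 to 0.43 CPM in PS19. In p16KO it ran from 0 to 0.0514 CPM and in PS19_p16KO from 0 to 0.0524 CPM. The WT range overlapped those of both groups that lack p16, so at such counts this row cannot tell the p16 genotype of a single library. The transgene groups could be told from the others by the Prnp row, which was 984 to 1080.3 CPM in the 8 libraries without the transgene and 1536 to 1960.4 CPM in the 8 with it. Neuronal markers were abundant in every library, with a summed level of the 4 markers of 4635 to 5671 CPM. Choroid plexus markers stood apart in 3 libraries, with Ttr at 717 CPM in WT library 1, 2987 CPM in p16KO library 4 and 5181 CPM in PS19_p16KO library 3, against at most 153 CPM in the other 13. Fewer cells of a type and less RNA per cell cannot be told apart in bulk samples.

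No ribosomal protein gene passed an adjusted p under 0.05 in any of the 7 comparisons, and nearly all of them lay slightly higher in the groups with the PS19 transgene. In PS19 against WT the fitted log2 fold change was above 0 in 78 of 82 members tested, with a median of 0.13, where 48.3% of all 16372 genes tested were above 0 and their median was -0.01. The median was 0.07 without PS19 library 2, and 0.04 with 63 members above 0 when a library covariate for short mRNAs was added. In PS19_p16KO against p16KO it was above 0 in 77 members, with a median of 0.08, against 51.8% of all genes, although this median was -0.01 with the same covariate. For loss of p16 the median was 0.01 in p16KO against WT, with 51 members above 0 against 49.7% of all genes, and -0.02 in PS19_p16KO against PS19, with 30 members above 0 against 50.6%. Rpl6l was not tested, because its counts were too low for the filter. The members of a library rise and fall together, so these counts over members are not counts of independent genes.

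The level of the whole family was taken first. The 83 members together took 1.03% of the gene counts on average. Their summed level was 10352, 8893, 10432 and 9862 CPM in WT libraries 1 to 4 and 11428, 9899, 9709 and 9038 CPM in p16KO libraries 1 to 4. It was 10983, 11855, 9758 and 10116 CPM in PS19 libraries 1 to 4 and 10763, 9646, 10973 and 10497 CPM in PS19_p16KO libraries 1 to 4. The 4 groups overlapped: WT library 2 was the lowest of all, PS19 library 2 the highest, and p16KO held both the second highest and the second lowest. The group means were 9885 CPM ± 707 (SD, n = 4) in WT, 10019 ± 1009 in p16KO, 10678 ± 938 in PS19 and 10470 ± 583 in PS19_p16KO. The difference between the highest and the lowest group mean is smaller than the range within any of the 4 groups.

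The members moved together from library to library. For each gene the log2 of CPM plus 0.5 was set against its mean over the 16 libraries, and the median of these deviations over the members describes a library. It was -0.21 in WT library 2, -0.18 in p16KO library 4, 0.16 in p16KO library 1 and 0.22 in PS19 library 2, and lay between -0.09 and 0.11 in the other 12. In WT library 2 only 2 of 83 members stood above their own mean, and in PS19 library 2 81 of 83 did. Of the 80 protein-coding members, 42 had their lowest level in WT library 2 and 27 in p16KO library 4, while 44 had their highest level in PS19 library 2 and 22 in p16KO library 1. The median SD of a member within groups was 0.14 on the log2 scale, and 0.07 once the median deviation of the other members in the same library was taken off. This subtraction reduced the spread of 77 of the 83 members.

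**Figure D1:**
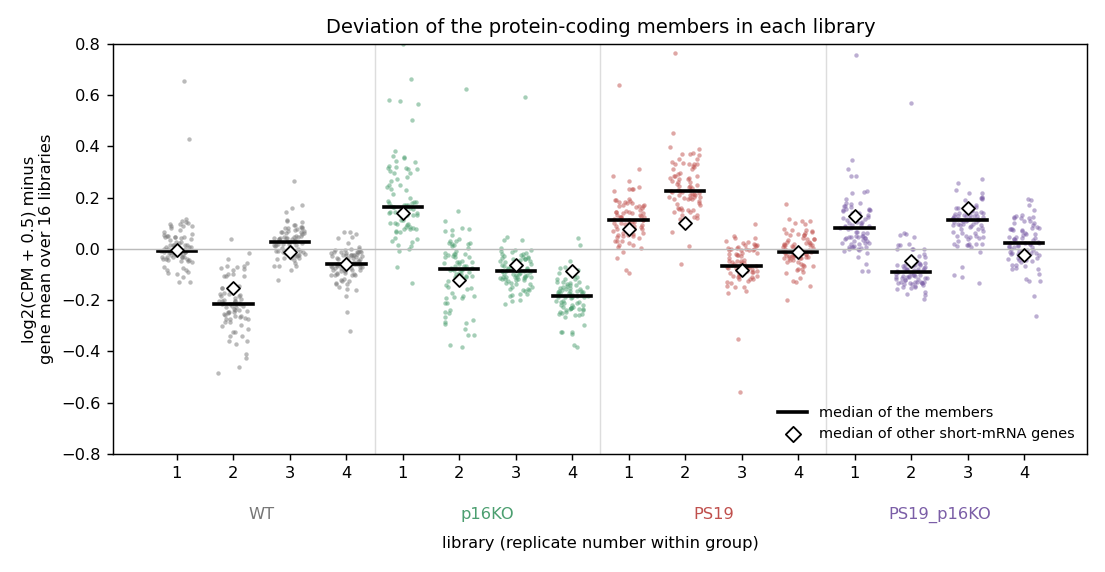
Deviation of each protein-coding member (points) from its own mean over the 16 libraries, in log2(CPM + 0.5), for the 4 libraries of each group. Black bars are medians over all 83 members and white diamonds medians over 107 other genes with short mRNAs. WT library 2 (-0.21) and PS19 library 2 (0.22) are the extremes, and 4 points lie outside the axis.

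Other genes with short mRNAs were also low or high in these libraries. Members have short mRNAs, with a median of 843 bases in the annotated model mRNA against 3325 bases over genes of 10 CPM or more. A set of 107 genes outside the family with a model mRNA of 700 bases or less and a mean of 10 CPM or more had medians of -0.15 in WT library 2, 0.14 in p16KO library 1, 0.10 in PS19 library 2 and -0.09 in p16KO library 4. Their highest median, 0.16, was in PS19_p16KO library 3, where the members stood at 0.11. In p16KO library 1 the 11 members with the shortest mRNAs (500 bases or less) stood at a median of 0.34, and the 27 members above 1000 bases at 0.13. In p16KO library 2 the same pair of medians was -0.28 and -0.03. The part that mRNA length or RNA quality has in the results below was not tested beyond the covariate given with them, which itself differed between the groups.

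The highest levels per length belonged to a stalk protein gene. Compared per kb of annotated exon sequence, Rplp1, which encodes one of the acidic proteins of the stalk that recruits elongation factors, led with a mean of 615 CPM per kb. Rps3a1, Rps15, Rpl4 and Rps2 followed with 259, 247, 198 and 163 CPM per kb. The median over the protein-coding members was 57.4 CPM per kb, with quartiles of 35.6 and 86.0. The lowest members were Rps20 (13.0), Rpl7l1 (12.6), Rps27l (7.16), Rps3a2 (1.72) and Rpl6l (0.489 CPM per kb). The order depends on the length used: per kb of the model mRNA, Rps14 (396), Rpl3 (374) and Rpl13 (310) joined Rplp1 and Rps15 (311) at the top. Rps20 and Rps15a are low per length on either scale, and their annotated model mRNAs are 3706 and 5179 bases long.

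**Figure D2:**
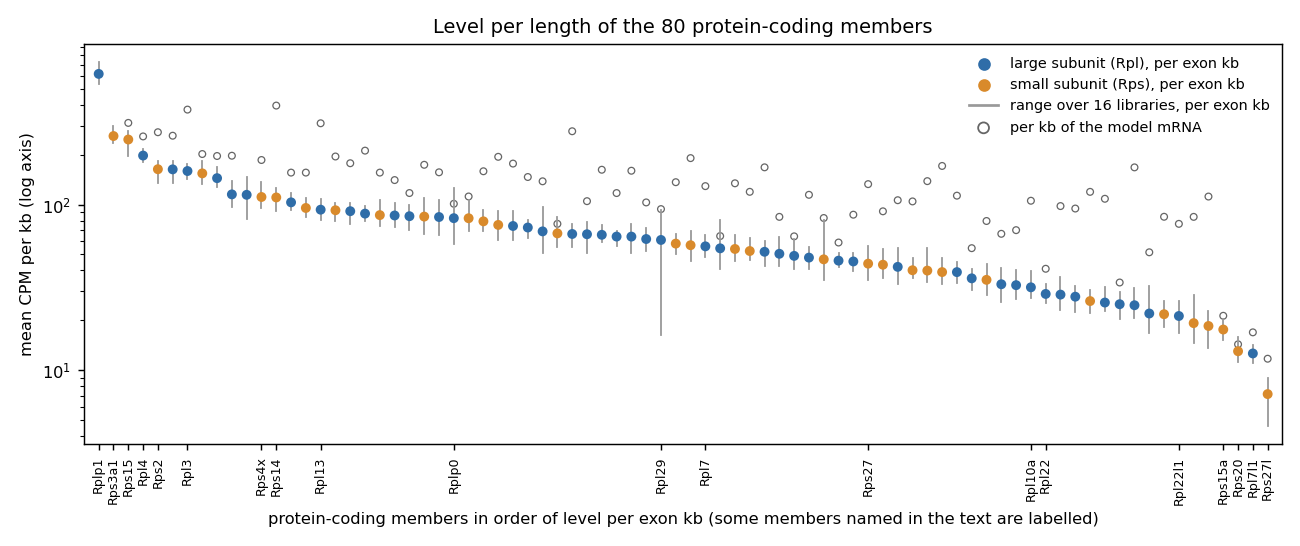
Mean level of the 80 protein-coding members per kb on a log axis, ordered by CPM per kb of annotated exon sequence (filled points, with the range over 16 libraries as a line). Open circles give the same mean per kb of the model mRNA, and some of the members named in the text are labelled. Rplp1 is highest with 615 CPM per kb, Rps27l is lowest with 7.16, and Rpl29 has the widest range.

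Paralogs within the family were expressed at unequal levels. Rpl22 and its paralog Rpl22l1 were 28.8 and 21.2 CPM per exon kb, the closest of the pairs. Rpl7 stood at 55.9 against 12.6 for Rpl7l1, and Rps27 at 43.9 against 7.16 for Rps27l, a paralog known as a p53 target. Rps4x, the X-linked gene, stood at 111 against 16.2 CPM per exon kb for Rps4l. As a share of the CPM of Rps4x, Rps4l made up 7.38% ± 1.96 (SD, n = 4) in WT, 9.26% ± 1.67 in p16KO, 7.62% ± 1.36 in PS19 and 9.65% ± 0.865 in PS19_p16KO. Rps27l made up 12.9% ± 1.02, 14.02% ± 1.36, 10.95% ± 1.71 and 13.6% ± 2.36 of the CPM of Rps27 in the same order of groups. Rps3a2 and Rpl6l, whose sequences are 99.5% and 98.7% identical to the coding parts of Rps3a1 and Rpl6, stood at 0.460% to 0.575% and 0.162% to 0.298% of the CPM of these genes in the 4 groups, and reads of such near-identical rows may be split between them by the counting.

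The comparison of PS19 with WT asks what the transgene changes while p16 is intact. In it 1.61% of all genes tested passed the threshold and 0 of 82 members did, by edgeR's quasi-likelihood test, by DESeq2 and by limma-voom. At an unadjusted p under 0.05, 14 members were higher and 0 lower, where 6.8% of all genes were higher and 2.77% lower. The medians were similar in the 2 subunits, at 0.12 over 48 large-subunit members and 0.14 over 34 small-subunit members. The whole range over members ran from -0.13 to 0.33, with a median standard error of 0.08.

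Rpl10a, a large-subunit protein of the stalk through which used tRNA leaves, had the smallest p. Its level was 69.8, 66.5, 81.5 and 74.9 CPM in WT libraries 1 to 4, 77.9, 70.02, 68.6 and 68.2 CPM in p16KO, 87.0, 95.9, 78.7 and 82.6 CPM in PS19 and 77.7, 73.9, 79.0 and 76.8 CPM in PS19_p16KO. PS19 libraries 1, 2 and 4 lay above every library of the other groups, and PS19 library 3 lay below WT library 3. The log2 fold change in PS19 against WT was 0.23 ± 0.06 (SE; adjusted p = 0.0911, edgeR's quasi-likelihood test). Without WT library 3 it was 0.28 with an adjusted p of 0.0391, and without PS19 library 3 it was 0.27 with an adjusted p of 0.0367, both by edgeR's quasi-likelihood test, so the call depends on these single libraries. The share of all genes called without these libraries was not counted.

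Rps9, a small-subunit protein that binds early in assembly, was 144, 114, 139 and 133 CPM in WT and 163, 175, 142 and 149 CPM in PS19. The ranges overlapped, because WT library 1 stood above PS19 library 3. Its log2 fold change was 0.24 ± 0.08 (adjusted p = 0.161 by edgeR's quasi-likelihood test). Rpl28, a large-subunit protein, was 113, 95.9, 111 and 112 CPM in WT and 130, 133, 112 and 122 CPM in PS19, with a log2 fold change of 0.20 ± 0.07 (adjusted p = 0.211 by the same edgeR test). Here WT library 2 was low, and WT libraries 1 and 4 stood just above the lowest PS19 library.

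In 4 members every PS19 library lay above every WT library, which 3.52% of all genes tested also showed in that direction, while 0 members lay entirely below, against 1.47% of all genes. These members were chosen for that pattern after their values were seen. Rpl36, a large-subunit protein, was 43.7, 31.4, 43.4 and 39.7 CPM in WT and 52.9, 56.0, 46.4 and 44.5 CPM in PS19, a log2 fold change of 0.33 ± 0.12 (adjusted p = 0.281, edgeR's quasi-likelihood test). Rpl23, known for binding the p53 regulator MDM2 when free of ribosomes, was 86.0, 79.2, 86.0 and 88.0 CPM in WT and 97.9, 113, 88.6 and 92.3 CPM in PS19. Its log2 fold change was 0.20 ± 0.08 (adjusted p = 0.391 by edgeR's quasi-likelihood test), and the nearest values, WT library 4 and PS19 library 3, were less than 1 CPM apart.

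The stalk protein gene Rplp2 was 66.4, 56.4, 68.2 and 60.8 CPM in WT and 75.9, 79.3, 69.5 and 69.1 CPM in PS19 (log2 fold change 0.22 ± 0.10, adjusted p = 0.518, edgeR's quasi-likelihood test). Rpl38, known for a role in the translation of Hox mRNAs, was 26.9, 24.2, 29.3 and 26.6 CPM in WT and 32.7, 36.6, 29.7 and 29.4 CPM in PS19 (log2 fold change 0.26 ± 0.17, adjusted p = 0.73, same test). In both genes p16KO library 1, at 83.2 CPM for Rplp2 and 43.6 CPM for Rpl38, stood above every PS19 library.

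**Figure D3:**
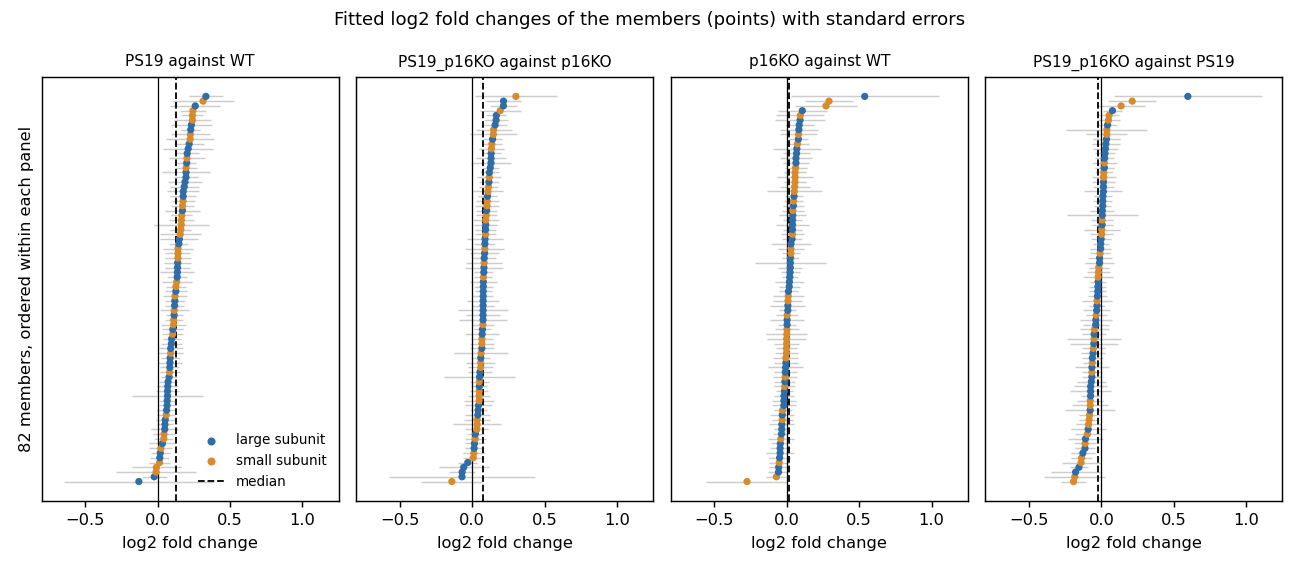
Fitted log2 fold changes of the 82 members tested (points) with standard errors (grey bars), ordered within each panel. Dashed lines are medians over the members: 0.13 for PS19 against WT, 0.08 for PS19_p16KO against p16KO, 0.01 for p16KO against WT and -0.02 for PS19_p16KO against PS19. No point passed the adjusted threshold.

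The start of the mRNA is shown for some of the members with the smallest p or with separate groups. The windows below are from RefSeq on GRCm38.p6, on the sense strand, with 15 bases on each side of the annotated transcription start. Capitals mark each C together with the 4 bases after it where all 4 are C or T, the letters of a TOP tract. Rps12, in this set for its difference between PS19_p16KO and PS19, encodes a small-subunit protein, and Rplp0 is shown for its spread between libraries. Rpl10a has 2 annotated starts.
Rpl10a, chr17:28328456-28328485, plus strand: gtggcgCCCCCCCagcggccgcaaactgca
Rpl10a, chr17:28328550-28328579, plus strand: gctctatttgagcgcatgcgcaaagcgctc
Rpl28, chr7:4792950-4792979, plus strand: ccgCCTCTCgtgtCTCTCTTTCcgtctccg
Rplp2, chr7:141447636-141447665, plus strand: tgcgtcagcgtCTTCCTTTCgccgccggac
Rps9, chr7:3704026-3704055, plus strand: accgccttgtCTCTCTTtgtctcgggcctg
Rpl38, chr11:114668565-114668594, plus strand: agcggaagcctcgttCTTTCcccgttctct
Rps12, chr10:23787195-23787224, minus strand: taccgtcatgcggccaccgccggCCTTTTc
Rpl23, chr11:97782425-97782454, minus strand: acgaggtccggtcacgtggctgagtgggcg
Rplp0, chr5:115559452-115559481, plus strand: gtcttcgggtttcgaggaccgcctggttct

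Rpl28, Rplp2, Rps9 and Rpl38 hold such letters at or beside the annotated start, Rps12 holds them further inside, and Rpl10a holds them before the first of its starts. The second window of Rpl10a and those of Rpl23 and Rplp0 hold none. Among members with a small p whose windows are not shown, Rpl27a and Rpl13a hold such letters, and Rpl27 and Rps4x hold none. For Rpl36 there was no window. The RefSeq table had windows for 60 of the 83 members, 71 windows in all. The letters were present in 41 of the 71 windows (57.7%) against 36.4% of all 32851 windows of the same length, and began exactly at the annotated start in 18.3% against 2.51%. Only the sense strand was searched, and annotated starts can differ from the starts used in the hippocampus. A match is a description of letters and not a measured site.

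The transgene effect without p16, PS19_p16KO against p16KO, gave 0 members called by edgeR's quasi-likelihood test, DESeq2 or limma-voom, with 0.0183% of all genes called. At an unadjusted p under 0.05, 4 members were higher and 0 lower, against 1.86% and 1.79% of all genes. Rpl30 and Rpl27a, both large-subunit genes, were among the members with the smallest p. Rpl30 was 94.7, 72.8, 72.4 and 70.1 CPM in p16KO and 94.0, 78.0, 95.3 and 90.8 CPM in PS19_p16KO, and p16KO library 1 stood above PS19_p16KO libraries 1, 2 and 4. Its log2 fold change was 0.22 ± 0.10, and that of Rpl27a was 0.14 ± 0.06, both with an adjusted p of 0.999 by edgeR's quasi-likelihood test. In 0 members were these groups separate, against 1.18% of all genes upward and 1.47% downward. The median over members ran from 0.03 without p16KO library 4 to 0.16 without p16KO library 1.

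Averaged over both p16 genotypes, 80 of 82 members had a log2 fold change above 0 for the transgene, with a median of 0.11, against 51.1% of all genes and a median of 0.00 over them. In this comparison 25 members were higher at an unadjusted p under 0.05 and 0 lower, against 6.25% and 3.77% of all genes, and 0 passed the adjusted threshold, which 0.391% of all genes did. DESeq2 and limma-voom also called 0. Rpl10a again had the smallest p (log2 fold change 0.17 ± 0.05, adjusted p = 0.117), followed by Rpl36 (0.27 ± 0.08, adjusted p = 0.243) and Rpl27 (0.18 ± 0.06, adjusted p = 0.292), all by edgeR's quasi-likelihood test. This average is built from the libraries of the 2 comparisons above and is no separate evidence. Without p16KO library 1, 2 members passed by edgeR's quasi-likelihood test, among them Rpl36 at 0.35 (adjusted p = 0.0306). Without PS19 library 3 only Rpl10a passed, at 0.19 (adjusted p = 0.0472, same test). The share of all genes called in these reduced fits was not counted, so the calls cannot be read as particular to the members.

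Markers of other cell types were read in the same contrast. In PS19 against WT, 15 of 24 genes of a disease-associated microglia list and 4 of 5 microglial markers rose, by edgeR's quasi-likelihood test. The summed microglial markers ran from 250 to 290 CPM in WT and from 348 to 701 CPM in PS19, but from 300 to 334 CPM in PS19_p16KO against 274 to 339 CPM in p16KO. Astrocyte markers were higher at an unadjusted p under 0.05 in 4 of 4 genes and oligodendrocyte markers in 3 of 4 by the same edgeR test, with medians of 0.20 and 0.35 and 0 passing the adjusted threshold. Summed astrocyte markers ran from 1775 to 1944 CPM in WT and from 1937 to 2486 CPM in PS19, and summed oligodendrocyte markers from 1860 to 2744 CPM and from 2332 to 3232 CPM. Mitochondrially encoded genes had a median of -0.17, with 0 of 11 above 0. Their summed level overlapped, from 12064 to 17610 CPM in WT and from 10392.5 to 17652 CPM in PS19, and PS19 library 2 was the highest of all libraries. Some of the libraries with extreme member levels stood apart here too. WT library 2 was the highest in neuronal markers (5671 CPM) and the lowest in oligodendrocyte markers, at 1860 CPM beside 1865 CPM in WT library 4. PS19 library 2 was the highest in both oligodendrocyte and astrocyte markers, and p16KO library 4 the lowest in astrocyte markers (1729 CPM). By contrast, p16KO library 1 was at no extreme, with 2627 CPM of oligodendrocyte, 2049 CPM of astrocyte and 5081 CPM of neuronal markers. In PS19_p16KO against p16KO 0 of 24 and 0 of 5 of the microglial genes passed the test. The median over the members there was 0.08, and -0.01 with the short-gene covariate, as given above. The part of cell composition in the members' values was not tested in either comparison.

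Fold changes were also read by mRNA length. In PS19 against WT the median over members was 0.16 for 11 members of up to 500 bases, 0.14 for 17 above 500 and up to 700, 0.14 for 25 above 700 and up to 1000 and 0.09 for 27 above 1000. Other genes of 10 CPM or more had medians of 0.08, 0.06, 0.03 and -0.01 in the same bins, so that members stood above other genes of like length in each bin. In PS19_p16KO against p16KO the medians of members were 0.08, 0.08, 0.08 and 0.07, and those of other genes 0.07, 0.09, 0.05 and 0.00. There the medians of members in the 2 shorter bins were close to those of other short genes. In PS19_p16KO against PS19 the medians of members were -0.03, -0.06, -0.03 and 0.00 and those of other genes 0.03, 0.06, 0.05 and 0.01, so that members stood below other genes in each bin. These medians were not tested, because members of a library are not independent.

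**Figure D4:**
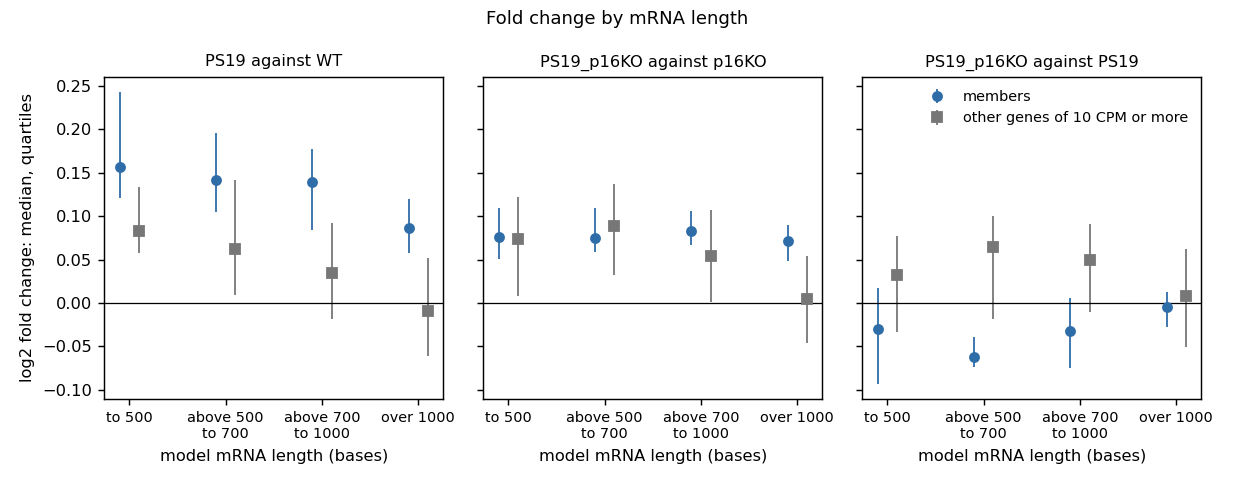
Median log2 fold change with quartiles (bars) of members (blue circles) and of other genes of 10 CPM or more (grey squares) in 4 bins of model mRNA length, for 3 comparisons. In PS19 against WT the members stand at 0.16 in the shortest and 0.09 in the longest bin, and other genes at 0.08 and -0.01.

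With the library median of the 107 other short-mRNA genes as a covariate, an analysis added after the data were seen, the medians over members fell to 0.04 in PS19 against WT, -0.01 in PS19_p16KO against p16KO and 0.02 averaged over the p16 genotypes. Members above 0 then numbered 63, 37 and 55 of 82. The covariate itself differed between the groups, with means of -0.06 in WT, -0.03 in p16KO, 0.02 in PS19 and 0.05 in PS19_p16KO. A difference between genotypes and one that follows the covariate therefore cannot be fully told apart in this fit. Members with an unadjusted p under 0.05 went from 14 to 5, from 4 to 4 and from 25 to 3. In PS19_p16KO against PS19 they went the other way, from 2 to 16, and in the p16 effect averaged over transgene states from 2 to 9. In the interaction they went from 0 to 4. The share of all genes under this threshold was not counted with the covariate, so these counts cannot be read as particular to the members.

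Loss of p16 without the transgene, p16KO against WT, gave 0 members called and 0 with an unadjusted p under 0.05 by edgeR's quasi-likelihood test, and 0 called by DESeq2 or limma-voom. Over all genes, 0% passed the adjusted threshold, and 2.11% were higher and 1.88% lower at the unadjusted one. The groups were separate in 0 members, against 1.75% of all genes upward and 1.24% downward. Rps4l, Rps29 and Rpl13a had the smallest p. The values of Rps4l, annotated as a transcribed processed pseudogene, were 7.96, 13.7, 13.5 and 16.1 CPM in WT and 14.6, 19.9, 15.7 and 12.9 CPM in p16KO, overlapping, with a log2 fold change of 0.29 ± 0.17 (adjusted p = 0.999, edgeR's quasi-likelihood test). Rps29, a small zinc-binding protein of the small subunit, was 32.0, 24.3, 31.0 and 26.6 CPM in WT and 55.5, 25.9, 30.7 and 25.2 CPM in p16KO. Of these only p16KO library 1 was high, and the log2 fold change of 0.27 ± 0.21 became -0.07 without it. Rpl13a was 0.08 ± 0.06 higher on the log2 scale (adjusted p = 0.999, edgeR's quasi-likelihood test). The median over members was -0.07 without p16KO library 1 and 0.06 without p16KO library 4.

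Loss of p16 in transgenic mice, PS19_p16KO against PS19, gave 0 members called by edgeR's quasi-likelihood test, DESeq2 or limma-voom, against 0.825% of all genes by edgeR. At an unadjusted p under 0.05, 2 members were lower, Rpl10a and Rps12, and 0 higher, against 5.47% and 3.12% of all genes. The groups were separate in 0 members, against 1.44% of all genes upward and 2.63% downward. Rpl10a had a log2 fold change of -0.15 ± 0.06 (adjusted p = 0.456, edgeR's quasi-likelihood test), and its values in both groups are given above. Rps12 was 91.2, 110, 81.0 and 84.0 CPM in PS19 and 84.9, 70.9, 87.8 and 75.03 CPM in PS19_p16KO, with 2 PS19 libraries above all of the other group. Its log2 fold change was -0.19 ± 0.09 (adjusted p = 0.562, edgeR's quasi-likelihood test), against 0.24 ± 0.09 in PS19 against WT (adjusted p = 0.284), where WT stood at 77.05 CPM ± 5.96 (SD, n = 4). Rps4x followed, with -0.14 ± 0.07 against PS19 (adjusted p = 0.657) and 0.20 ± 0.07 in PS19 against WT (adjusted p = 0.297, same edgeR test). These 2 comparisons share the PS19 libraries. With the short-gene covariate Rps12 was the 1 member called, at -0.23 (adjusted p = 0.0139, edgeR's quasi-likelihood test), and the median over members was -0.05. The share of all genes called with that covariate was not counted. Without PS19 library 2 the median turned to 0.02.

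The interaction, which asks whether p16 status alters what the transgene does, gave 0 members called, 0 with an unadjusted p under 0.05 and a median of -0.04 by edgeR's quasi-likelihood test, and DESeq2 and limma-voom called 0. Over all genes 0.00611% were called, and 1.28% were higher and 4.16% lower at the unadjusted threshold. Of the members 23 were above 0, against 52.1% of all genes. Rps9 (-0.17 ± 0.11) and Rps29 (-0.45 ± 0.30) were among the members with the smallest p, both with an adjusted p of 0.999 by edgeR's quasi-likelihood test. The median was 0.03 without p16KO library 1 and -0.10 without PS19 library 3. Loss of p16 averaged over both transgene states also gave 0 members called by the 3 tools, against 0.226% of all genes by edgeR. Its median over members was 0.00, with 38 members above 0 against 49.2% of all genes. There was 1 member higher (Rps4l, 0.25 ± 0.12, adjusted p = 0.618) and 1 lower (Rpl10a, -0.10 ± 0.05, adjusted p = 0.611) at an unadjusted p under 0.05 by the same edgeR test, against 3.52% and 4.44% of all genes. Rps12 was at -0.12 ± 0.06 (adjusted p = 0.691, edgeR's quasi-likelihood test).

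The order of the group means was counted as a description. Of 80 protein-coding members, 57 had their highest group mean in PS19, 21 in PS19_p16KO, 2 in p16KO and 0 in WT. The lowest group mean was in WT for 51, in p16KO for 26, in PS19 for 2 and in PS19_p16KO for 1. This order was not counted over all genes. Members of a library move together, and PS19 library 2 alone held the highest level of 44 of these members. Rpsa, which also gives the laminin receptor, had nearly level means of 301 CPM ± 23.7 (SD, n = 4) in WT, 301 ± 26.8 in p16KO, 305 ± 29.1 in PS19 and 301 ± 18.5 in PS19_p16KO. Rplp1 stood at 297 CPM ± 20.96, 303 ± 40.4, 317 ± 33.5 and 312 ± 18.8 in the same order. For Rpsa the means differed by less than any of the SDs, and for Rplp1 the range of each group overlapped that of every other group.

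Other genes of the translation apparatus were taken from lists chosen with earlier results of these data known. In PS19 against WT, 0 of 12 elongation factor genes, 0 of 41 initiation factor genes, 0 of 27 other TOP genes, 0 of 68 ribosome biogenesis genes, 0 of 25 genes of mTOR and S6 kinase signalling and 0 of 75 mitochondrial ribosomal protein genes passed. Their medians were 0.03, 0.03, 0.06, 0.03, 0.02 and 0.02. In the same comparison 0 of 6 tested genes of the checkpoint by which free ribosomal proteins act on p53 and 0 of 19 ribosome quality control genes passed, with medians of 0.00 and -0.01. A list of 8 nuclear-retained RNAs, which reads RNA fractions, had a median of -0.19 with 0 passing, and its summed level ran from 1435 to 1924 CPM in WT and from 1238 to 1762 CPM in PS19. At an unadjusted p under 0.05 by edgeR's quasi-likelihood test, 5 of the 25 genes of mTOR and S6 kinase signalling, 3 of the 41 initiation factor genes, 3 of the 27 other TOP genes, 4 of the 68 biogenesis genes and 2 of the 75 mitochondrial ribosomal protein genes were higher in that comparison, and 0 of the elongation factor genes. The checkpoint list held 2 higher and 1 lower of 6, the quality control list 1 higher of 19 and the nuclear RNAs 1 higher and 1 lower of 8, against 6.8% of all genes higher and 2.77% lower. DESeq2 and limma-voom were not counted over these lists.

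Rpl29 varied far more between libraries than the other members, and Rplp0 came next. Near-identical pseudogene rows of both also varied between libraries. Rpl29, a large-subunit protein at chr9:106429454-106431568, had a pooled SD within groups of 0.77 on the log2 scale, and Rplp0, the stalk protein that anchors Rplp1 and Rplp2, at chr5:115559467-115563727, one of 0.35, where the median member had 0.14. Rps29 (0.30) and the pseudogene-class row Rps3a2 (0.29) followed close behind Rplp0. The subtraction of the other members' median left 0.71 for Rpl29 and 0.29 for Rplp0, and the latter was then just below Rps4l with 0.30.

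Rpl29 was 96.6, 18.4, 58.8 and 58.6 CPM in WT libraries 1 to 4, 97.0, 94.5, 92.3 and 53.0 CPM in p16KO, 23.8, 104, 25.3 and 59.2 CPM in PS19 and 104, 90.8, 61.9 and 62.0 CPM in PS19_p16KO. The values fell into 3 ranges with gaps between them: 3 libraries at 18.4 to 25.3 CPM, 6 at 53.0 to 62.0 CPM and 7 at 90.8 to 104 CPM. The low range held 1 WT and 2 PS19 libraries, the middle range 2 WT, 1 p16KO, 1 PS19 and 2 PS19_p16KO libraries, and the high range 1, 3, 1 and 2 in the same order. No group kept to 1 range, and Rpl29 was called in none of the comparisons by edgeR's quasi-likelihood test.

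The copies of Rpl29 ran the other way. Gm8210 at chr1:43189156-43189638 and Gm13841 at chr5:115801677-115802159 are processed pseudogenes that match all 483 coding bases of Rpl29 with 3 mismatches each (C72A, C300T and T423C, with the base of Rpl29 first). Short windows are shown because, within the coding part, only reads over such positions can tell Rpl29 from its copies. Both copies carry the same 3 mismatches, so reads of the coding part cannot be assigned between Gm8210 and Gm13841, and their separate values are those of the deposited rows. Positions are counted from 1 at the first coding base, and the windows hold coding bases 57 to 86 in GRCm38, with the mismatched base in capitals.
Rpl29, coding bases 57 to 86: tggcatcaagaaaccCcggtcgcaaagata
Gm8210, same bases: tggcatcaagaaaccAcggtcgcaaagata
Gm13841, same bases: tggcatcaagaaaccAcggtcgcaaagata

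Gm8210 and Gm13841 had 4.57 to 6.13 and 3.98 to 5.65 CPM in the 3 libraries of the low Rpl29 range, 1.80 to 3.59 and 2.19 to 3.57 CPM in the middle range, and 0 to 0.210 and 0 to 0.210 CPM in the high range. Their sum with Rpl29 still ran from 29.04 to 104 CPM. It holds only 2 of the 47 copy rows found for Rpl29, but all 47 rows together held a mean of only 7.13 CPM. How the counting treated reads that match several rows is not known. The part of the copies in the difference therefore cannot be told from this sum. Poc1a and Abhd14a, other genes of chromosome 9 that were picked after their values were seen, ran with Rpl29. Poc1a was 3.66 to 5.11, 6.56 to 8.06 and 8.73 to 11.8 CPM in the low, middle and high ranges, and Abhd14a 7.90 to 10.6, 12.04 to 14.2 and 12.3 to 15.8 CPM.

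Rplp0 was 180, 95.6, 150 and 107 CPM in WT, 158, 145, 137 and 103 CPM in p16KO, 209, 129, 105 and 117 CPM in PS19 and 147, 139, 162 and 112 CPM in PS19_p16KO. All groups overlapped, and PS19 library 1 and WT library 1 were the highest. Its processed pseudogene Gm8730 at chr8:102864845-102865798 matches the 954 coding bases with 12 mismatches (98.7% identity).

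Gm8730 was at 0.943 CPM in WT library 1 and 0.591 CPM in PS19 library 1, the pair with the highest Rplp0, and at 17.0 to 39.4 CPM in the other 14 libraries. The sum of Rplp0 and Gm8730 ran from 123 to 210 CPM, a 1.71-fold range, against 2.19-fold for Rplp0 alone, and the pooled SD within groups fell from 0.35 to 0.21. With all pseudogene copies added, Rplp0 had a log2 fold change of 0.12 ± 0.13 in PS19 against WT (adjusted p = 0.855, edgeR's quasi-likelihood test). The cause of the split between these rows was not tested.

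**Figure D5:**
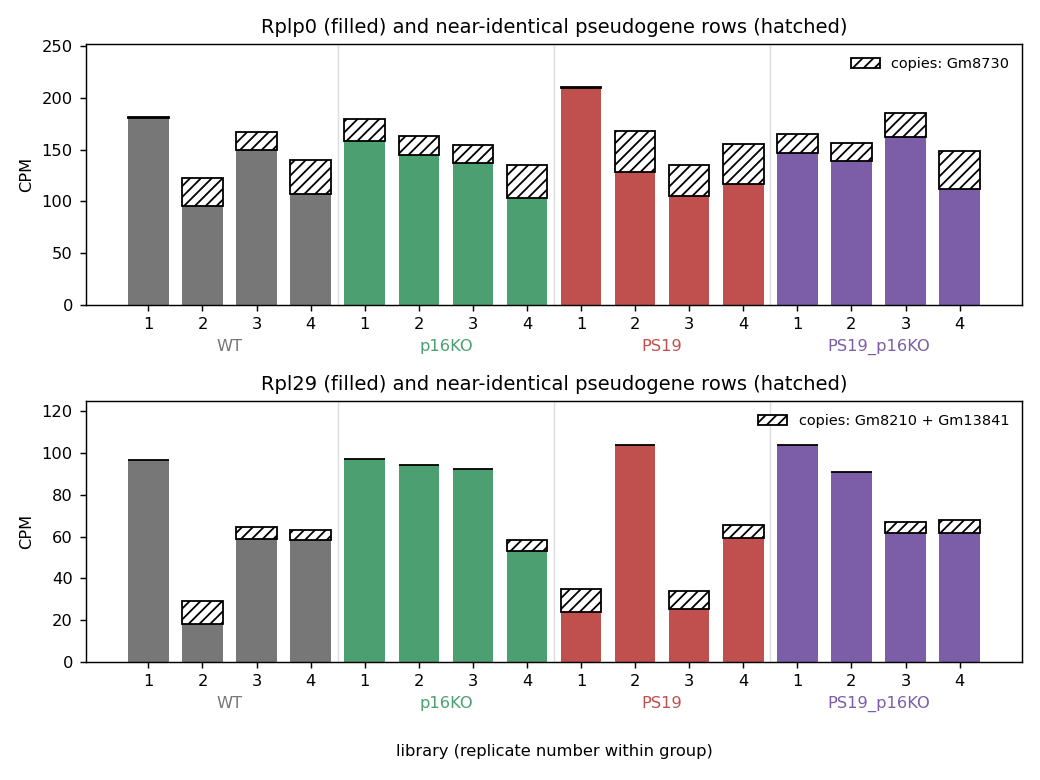
CPM of Rplp0 with its copy Gm8730 (upper panel) and of Rpl29 with Gm8210 and Gm13841 (lower panel) in each library, with the member as a filled bar and the copies stacked on top, hatched. Gm8730 is nearly absent from WT library 1 and PS19 library 1, and the Rpl29 copies from the 7 libraries with 90.8 CPM or more of Rpl29.

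Copies of this kind exist for most members but held few reads. A search of the coding parts against annotated transcripts, at 90% identity over 80% of the length, found 823 other gene rows for 80 of the 83 members, and 250 of these rows had 0 counts. Rpl21 had the most, with 68. Only 25 copy rows reached a mean of 1 CPM. The highest was BC004004, a protein-coding gene on chromosome 17 that holds a 98.6% identical copy of Rpl21, at 42.3 CPM. Gm10076 and Gm10736, which match all 78 coding bases of Rpl41, stood at 11.4 and 5.68 CPM, so reads of the Rpl41 coding part cannot be assigned between them. The Rps7 copy Gm6472 stood at 1.05 and 1.11 CPM in WT libraries 1 and 3, 17.7 CPM in WT library 4 and 7.48 to 11.02 CPM in the other 13, beside 161 to 206 CPM for Rps7 itself. With the pseudogene copies added to their members the median over members was 0.12 in PS19 against WT and 0.08 in PS19_p16KO against p16KO.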

How the data were processed

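The authors deposited 1 table of raw read counts per gene. The tools listed by the submitters' processing notes are STAR 2.5.2b, Trimmomatic 0.36, Subread 1.5.2, featureCounts and DESeq2, without role or order, and the genome build listed is GRCm38. For the annotation release and the strand setting, the sources used here give nothing. Reads of overlapping genes and near-identical copies may therefore be split. No per-sample column was left unused.

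Symbols, lengths and positions came from GENCODE M21, by Ensembl identifier (49326 of 49671 gene rows had a symbol). Library sizes and tests did not include the 92 ERCC rows. Counts of all 16 libraries were fitted together with edgeR 4.0.16 in R 4.3.3 (filterByExpr with a minimum count of 10, TMM scaling, robust quasi-likelihood fit, 1 mean per group), and p-values were adjusted by Benjamini-Hochberg over 16372 genes with a threshold of 0.05. Fold changes carry the standard error from the F statistic. The depth of 18485552 to 22311322 gene counts gave each member 134 counts or more over all libraries. CPM are counts per 1000000 gene counts, with 0.5 added before logs. Gene copies were found with blastn. The procedure was checked on simulated counts of independent genes, with changes larger than the medians of the members. This check therefore does not cover changes as small as these medians, or genes that move together within a library.

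Alternatives were RLE, upper-quartile and no scaling, DESeq2 1.42.0, limma-voom (limma 3.58.1), other filters, no robust estimation, only the compared groups, terms for the replicate number or for the leading suffix digit in library names, and leaving out each library. The short-gene covariate, the added copies and the level per model mRNA were added after the data were seen. The members and lists were chosen with earlier results of these data known. Named by rule were Rpsa, the stalk genes, paralog pairs, the 3 smallest p of each comparison, the 5 highest and lowest levels per exon kb, the 3 largest SDs within groups and the copies of these genes. Every other gene named, such as Rpl23, Rpl38, Rps7, Rpl41, Poc1a and Abhd14a, was chosen after its values were seen. Some items that these rules cover are not reported here.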

Additional observations from a re-analysis of the deposited data

Results flagged for a closer look

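A single library stood far from the other 3 of its group in 12 of 136 groups of 4 values examined (the summed level, the median deviation and the 32 members named by rule), where chance gives about 5%. WT library 2 was low in 4 genes: Rpl28 at 95.9 CPM against 111 to 113 in the other WT libraries, Rpl7l1 at 38.4 against 43.5 to 44.5, Rplp1 at 265.3 against 304 to 309, and Rpsa at 266 against 311 to 315. In p16KO, library 1 was high for Rpl27 at 102 CPM (86.7 to 89.2 in the others), Rpl30 at 94.7 (70.1 to 72.8) and Rplp2 at 83.2 (55.7 to 59.9), and library 4 was low for Rpl29 at 53.0 CPM (92.3 to 97.0). PS19 library 2 was high for Rpl7l1 at 47.5 CPM (42.9 to 43.4). It was also flagged as low for Rpl6l at 0.340 CPM (0.375 to 0.377), a value resting on few counts. The raw count of Rpl6l was the same in all 4 PS19 libraries. This gap therefore reflects only the larger gene count of PS19 library 2 and no difference in reads. In PS19_p16KO, library 3 was high for Rpl22l1 at 45.7 CPM (42.2 to 42.7), and library 1 for Rps27 at 55.3 CPM (41.3 to 43.4). Genes of a library move together, so these values are not independent of each other.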

How the results depend on the processing

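The count of members called was 0 in 195 of 200 pairs of a comparison and an alternative. The library medians had an SD of 0.12 within groups, about as large as the largest median over members, so that staying within it shows no stability of these medians. With the short-gene covariate the median fell from 0.13 to 0.04 in PS19 against WT and from 0.08 to -0.01 in PS19_p16KO against p16KO. Leaving out 1 library gave 0 to 1 members called in PS19 against WT and 0 to 2 in the transgene effect averaged over p16 genotypes, and the short-gene covariate gave 1 in PS19_p16KO against PS19. The share of all genes called in these fits was not counted. Leaving out 1 library moved the median from 0.07 to 0.16 in PS19 against WT, from 0.03 to 0.16 in PS19_p16KO against p16KO and from -0.07 to 0.02 in PS19_p16KO against PS19. The log2 fold change of Rps29 in p16KO against WT ran from -0.065 without p16KO replicate 1, which held its highest value, to 0.40 without p16KO replicate 4. With the replicate number as a block, 0 members were called in each of the 7 comparisons and the medians were 0.13 in PS19 against WT and 0.08 in PS19_p16KO against p16KO. Libraries share only a number: correlations of their deviations in the 24 same-number pairs ran from -0.45 to 0.26 with a median of -0.04, and 4 of 16 libraries correlated best with their own number. At this depth the standard errors of members (median 0.08 in PS19 against WT) come mostly from the spread between libraries, and differences near the medians above were not detectable for a single gene.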

Other observations

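Rows named as pseudogenes were outside the rule, and differences between the groups were not counted over them. The row described here does not have an Rpl or Rps name and was picked after its values were seen. Lamr1-ps1, named as a pseudogene of Rpsa and annotated beside Prnp on chromosome 2, was at 0 to 0.105 CPM in the 8 libraries without the transgene and at 2.52 to 3.55 CPM in the 8 with it. Its best alignment covered 98.3% of the coding part of Rpsa at 71.7% identity, below the limit used for copies, and Rpsa itself stood at 266 to 347 CPM.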
